A study of Rattus norvegicus with 12 samples.

Results

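The genes described here encode the parts of heterotrimeric G proteins, their regulators, and the enzymes that make, break down and read cyclic nucleotides. They were taken from a microarray study of CC531, a rat colon carcinoma cell line, as all probe sets whose only gene symbol in the array annotation begins with Gna, Gnb and a digit, Gng and a digit, Rgs and a digit, Adcy and a digit, Pde and a digit, Prkar or Prkac. This gave 79 of 8740 probe sets and 53 genes, of which 56 probe sets and 39 genes passed the filter on dim probe sets and were tested. The 79 held 17 probe sets of alpha subunits, 8 of beta and 8 of gamma subunits, 10 of RGS proteins, 9 of adenylyl cyclases, 19 of phosphodiesterases, and 4 each of regulatory and catalytic subunits of protein kinase A. The 23 that were not tested included every probe set of 14 genes. Of the 23, 21 were under the lower limit used here on every array, and the 14 genes were Adcy4, Gnal, Gnat3, Gnb3, Gnb4, Gng11, Pde1c, Pde2a, Pde4d, Pde5a, Prkar2a, Rgs1, Rgs18 and Rgs9.

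The cells had been exposed to 4.5 mM butyrate for 2, 6, 12, 16 or 24 h, to 3 mM aspirin for the same times, or left untreated for 2 or 24 h. Gut bacteria make butyrate, a fatty acid that inhibits histone deacetylases, and aspirin inhibits cyclooxygenases. Each of the 12 arrays held total RNA of 1 treatment and time, so the 5 arrays of a treatment differ in hours of exposure as well as by chance, and the untreated cells had 2 arrays. Nothing in the labels says that arrays came from separate cultures, so a p-value here sets a change against the scatter among arrays and says nothing of other cultures.

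A G protein has an alpha subunit that binds guanine nucleotides and a beta-gamma pair that travels with it. An activated receptor at the cell surface makes the alpha subunit exchange GDP for GTP, and RGS proteins shorten the active state by speeding GTP hydrolysis. Stimulatory alpha subunits raise and inhibitory ones lower the activity of adenylyl cyclase, which makes cyclic AMP. Cyclic AMP releases the catalytic subunits of protein kinase A from its regulatory subunits, and phosphodiesterases break it down. In the colon this pathway is known for the control of salt and water secretion.

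Values are intensities on a linear scale, and those under a floor of 90.91 were raised to it before log2 was taken. A change is called where its adjusted p from limma, over all 6118 probe sets tested, was under 0.05, and is given as log2 change ± standard error. It is given as "at least" where all arrays of the dimmer group and none of the brighter group lay at the floor. It is then a bound for this floor only. Scatter among arrays at the floor was not measured, so its standard error and p-value rest partly on the floor. No bound is given where the brighter group also had an array at the floor, as for Gnb5 (AF001953_g_at) and Pde4c (L27061_g_at). The size and standard error of such a change still depend on the floor. Negative values were 21.5 to 25.5% of those on an array, and 13.4 to 21.1% of an array's tested values lay at the floor. For the tested members this share was 25% at 2 h and 12.5 to 14.3% at 6 to 24 h of butyrate. It was 16.1 to 30.4% with aspirin, and 23.2 and 28.6% at 2 and 24 h in untreated cells. Because butyrate and aspirin were each set against the same untreated arrays, those comparisons are not independent, and the comparison of butyrate with aspirin uses the same treated arrays again. RNA came from whole cultures, in which fewer cells of a kind and less RNA per cell cannot be told apart.

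Colon epithelial markers were bright on all arrays, with 9 of the 11 listed genes that the array holds above the floor on every array, among them Krt8, Krt18 and Epcam. Cdx1, an intestinal transcription factor, was at the floor on every array. The summed epithelial marker intensity was 66807 to 79212 with butyrate, 73531 to 84179 with aspirin and 73353 to 87767 in untreated cells. Of the markers of other cell types, those above the floor on every array were 4 of 10 for fibroblasts and smooth muscle, 0 of 8 for blood and immune cells, 1 of 4 for endothelium, and 2 of 8 for neurons and retina. Their sums with butyrate, aspirin and no treatment were 3741 to 4699, 2325 to 4903 and 4850 to 5697 for fibroblasts, 528 to 1214, 575 to 1094 and 629 to 1480 for blood, 457 to 574, 472 to 696 and 791 to 905 for endothelium, and 741 to 1728, 526 to 1245 and 1245 to 1655 for neurons and retina. Their part in the results was not tested.

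With butyrate, 9 member probe sets were higher and 1 lower than in untreated cells. The higher ones belonged to the inhibitory alpha subunits Gnai2 and Gnaz, to Gnb5, Gng8, Pde4c, Pde6d and Prkaca, and the lower one was Gna15. The 10 called members were 17.9% of the 56 tested, and 11.7% of all probe sets tested were called in the same comparison, 7.78% higher and 3.92% lower. The 10 include all tested probe sets of Gnai2. They also include Gng8 (L35921_g_at) and Pde4c (L27061_g_at), which passed the filter through the butyrate arrays alone. The median change of the members was 0.06 on the log2 scale, against 0 for all probe sets tested. Against aspirin, butyrate gave 13 higher and 4 lower members, 30.4% of those tested, where 25.2% of all probe sets were called, 15.6% higher and 9.61% lower. The same probe sets of Gng8 and Pde4c are among the 13. The members' median there was 0.20, against 0.10 for all.

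The balance of higher and lower calls depended on scaling. When each array was centred on the median of its tested probe sets, the median change of all probe sets was -0.19 in place of 0 for butyrate against untreated and -0.21 in place of 0.10 for butyrate against aspirin. The members called were then 6 higher and 3 lower against untreated, and 11 higher and 11 lower against aspirin. Lower calls gained by centring were those of Gnai1 (M17527_at) and Prkacb (D10770_s_at) against untreated cells. Against aspirin they were those of Adcy8, Gnas, Gnb1, Gng10 and Gng5. The Gnai1 and Prkacb probe sets were at the floor on all butyrate arrays. Of the untreated arrays, only that of 2 h was above it, at 175 and 231. The calls lost by centring against untreated cells were those of Gnai2 (M12672_at and rc_AA875225_at) and Gnaz (J03773_s_at). Against aspirin, centring lost those of Gnai2 (rc_AA875225_at), Gng7 and Prkacb (rc_AA891881_at). With quantile normalization, the members called were 8 higher and 1 lower against untreated cells, and 9 higher and 4 lower against aspirin. The calls lost by it were that of Pde4c against untreated cells, and those of Gnaz (U77483mRNA_s_at), Gng7, Pde4a and Prkacb against aspirin. With time as a factor, the calls kept against untreated cells were those of Gna15 and of Gnai2 (rc_AA875225_g_at), and with no filter these and that of Gnaz. Against aspirin, the calls lost with no filter were those of Adcy6, Gnaz (U77483mRNA_s_at), Gng7, Gng8, Pde4a, Pde4c, Prkaca (X57986mRNA_r_at), Prkacb and Rgs19. With a higher floor of 182.2, the calls lost were those of Gnai2 (rc_AA875225_at), Gnaz, Gng8, Pde4c and Pde6d against untreated cells and of both Gnaz probe sets against aspirin. Over all probe sets, the share of calls that were higher was 66.5% as reported and 45.8% after centring for butyrate against untreated, and 61.8% as reported and 27.3% after centring for butyrate against aspirin.

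With aspirin, limma called 0 of the 56 members against untreated cells, with 6 at an unadjusted p under 0.05, and 0.147% of all probe sets were called, 0.0817% higher and 0.0654% lower. The lowest adjusted p among members was 0.363, of Pde6d. The members' median change was 0.00, against -0.04 for all.

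**Figure D1:**
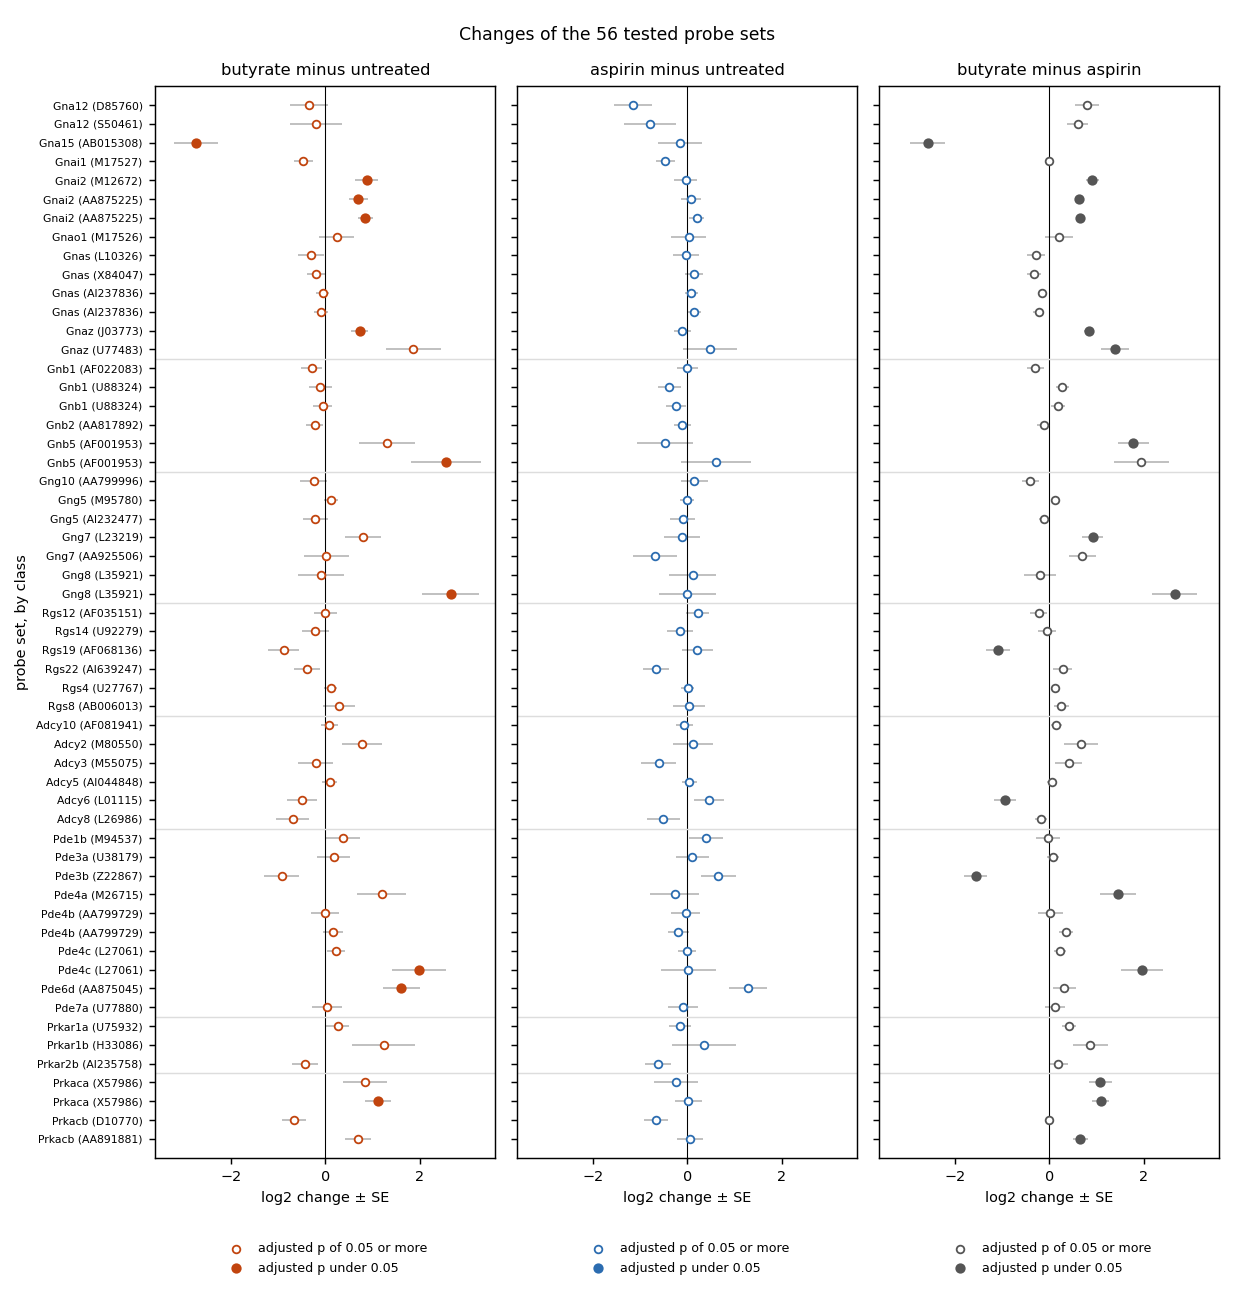
Log2 change of each tested member, by protein class, with butyrate against untreated, with aspirin against untreated and with butyrate against aspirin; filled points have an adjusted p under 0.05. Gna15 lies lowest in both comparisons of butyrate and Gng8 highest, and no point is filled for aspirin against untreated.

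Among alpha subunits, 14 probe sets of 7 genes were tested, and 4 rose and 1 fell with butyrate against untreated cells. The 4 belonged to Gnai2 and Gnaz alone. Class counts here and below stand beside the shares of all probe sets called with butyrate. These were 7.78% higher and 3.92% lower against untreated cells, and 15.6% higher and 9.61% lower against aspirin. Gna15, an alpha subunit of the Gq class that couples receptors to phospholipase C beta, was the member that fell most. Its probe set AB015308_s_at read 398, 85.8, 128, 175 and 121 at 2, 6, 12, 16 and 24 h of butyrate, 784, 781, 1004, 1038 and 1164 at the same hours of aspirin, and 1148 and 964 at 2 and 24 h without treatment. Every butyrate array lay below every aspirin and untreated array, and the aspirin arrays overlapped the untreated ones. Gna15 fell with butyrate, and its log2 change was -2.74 ± 0.46 against untreated cells (adjusted p = 0.00311) and -2.58 ± 0.37 against aspirin (adjusted p = 0.00955). The first call held in all 20 alternatives, with changes of -3.07 to -2.30, and the second was lost without the 12 or 16 h array of either treatment (adjusted p 0.0523 to 0.0544). With aspirin the change from untreated cells was -0.16 ± 0.46 (adjusted p = 0.955).

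RefSeq promoters of build GRCr8 were available for 39 of the 53 member genes, as 51 sequences. They were searched on both strands for the GC box GGGCGG, for the cyclic AMP response element TGACGTCA and for TGACG, which also lies within TGACGTCA. The GC box was in 51.0% of member promoters and 30.5% of all 33469 promoters of the same length, TGACGTCA in 2.0 and 1.6%, and TGACG in 21.6 and 18.2%. The median GC content of member promoters was 60.4%, against 51.2% for all. Sequences are shown for the 3 genes called with butyrate against untreated cells whose promoter is in the table, as the 250 bases before the start, 5′ to 3′, with matches to these motifs in capitals. That of Gna15 (chr7:8835374-8835623, plus strand) held none of them.
Gna15: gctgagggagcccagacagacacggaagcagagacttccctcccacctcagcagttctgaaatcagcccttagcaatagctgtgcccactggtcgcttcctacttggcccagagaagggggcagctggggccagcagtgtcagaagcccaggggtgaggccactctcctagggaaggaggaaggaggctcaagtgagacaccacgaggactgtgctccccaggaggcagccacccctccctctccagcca

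Gnai2, an inhibitory alpha subunit, was the one member gene with 3 probe sets that all rose with butyrate. The brightest, rc_AA875225_g_at, read 10326, 13687, 13139.7, 13589.8 and 13897 over the 5 times of butyrate, 6903, 8001, 8248, 9961 and 8375 over those of aspirin, and 6741 and 7671 without treatment. All butyrate arrays were above all others. The companion probe set rc_AA875225_at read 7834, 11336, 11634, 10582 and 11193 with butyrate, 4936, 8321, 6681, 7637 and 6812 with aspirin, and 5710.0 and 7212 in untreated cells. The probe set M12672_at read 3896, 4688, 5692, 4708 and 4866 with butyrate, 1653, 3525, 2835, 2166 and 2876 with aspirin, and 2771 and 2418 in untreated cells. In each of the 3 the butyrate arrays lay above both untreated arrays, and at every hour butyrate was above aspirin.

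Against untreated cells, Gnai2 rose by 0.84 ± 0.16 (adjusted p = 0.00663), 0.70 ± 0.21 (adjusted p = 0.0425) and 0.87 ± 0.25 (adjusted p = 0.0397) in the same order. The first call was lost without the untreated 2 h array alone (adjusted p = 0.0563). The calls of rc_AA875225_at and M12672_at were lost without any 1 array other than butyrate 2 h, aspirin 2 h and aspirin 6 h (adjusted p 0.0587 to 0.269 and 0.0506 to 0.2). Against aspirin the rises of Gnai2 were 0.64 ± 0.07 (adjusted p = 0.00586), 0.62 ± 0.08 (adjusted p = 0.00767) and 0.91 ± 0.14 (adjusted p = 0.0106). The first of these held in all 17 alternatives, with changes of 0.33 to 0.77, the lowest after median centring. Among the 17, leaving out the butyrate or the aspirin array of the same hour is nearly the same check. rc_AA875225_at was at 0.31 and no longer called after that centring (adjusted p = 0.0573), and M12672_at was lost without the 12 or 16 h array of either treatment (adjusted p 0.0556 to 0.0576). With aspirin the 3 changes from untreated cells were 0.20, 0.08 and -0.04 on the log2 scale, with adjusted p of 0.713, 0.946 and 1.

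Gnaz, another alpha subunit of the inhibitory class, was dimmer. Its probe set J03773_s_at read 142, 143, 173, 191 and 168 with butyrate, was at the floor on all 5 aspirin arrays, and read 106 and 25.5 in untreated cells. The rise with butyrate was 0.73 ± 0.18 against untreated cells (adjusted p = 0.02) and at least 0.84 ± 0.10 against aspirin (adjusted p = 0.00756). Both depended on the floor: with a floor of 182.2, which lies above most of these values, the changes of this Gnaz probe set were 0.01 and 0.01 (adjusted p 0.867 and 0.610). Scatter among its aspirin arrays was not measured, so the standard error against aspirin rests partly on the floor. The other probe set, U77483mRNA_s_at, read 154, 452, 159.8, 771 and 658 with butyrate, 68.4, 176, 104, 182 and 154 with aspirin, and 19.3 and 104 in untreated cells. It was higher with butyrate than with aspirin by 1.39 ± 0.29 (adjusted p = 0.0226), a call lost without any 1 treated array of 6 to 24 h (adjusted p 0.0560 to 0.0814), and its change from untreated cells was 1.86 ± 0.58 (adjusted p = 0.0533).

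Gnas, the stimulatory alpha subunit, was among the brightest members and passed the test in none of the 6 comparisons. Its brightest probe set, rc_AI237836_g_at, read 21912, 19766, 17484, 19246 and 17803 with butyrate, 18903, 25163, 20334, 23235 and 25756 with aspirin, and 17673 and 23791 in untreated cells, so that all groups overlapped. The 4 Gnas probe sets had changes of -0.06 to -0.31 with butyrate and -0.03 to 0.14 with aspirin against untreated cells, and -0.15 to -0.33 with butyrate against aspirin. After median centring, 3 of the 4 were called lower with butyrate than with aspirin, with changes of -0.46 to -0.63 (adjusted p 0.0108 to 0.0161). Gna12 had the largest change of the alpha subunits with aspirin. Its probe set D85760_at read 616, 731, 1015, 658 and 818 with butyrate, 262, 352, 601, 787 and 354 with aspirin, and 1293 and 721 in untreated cells, a change of -1.15 ± 0.41 with aspirin (adjusted p = 0.389). The other Gna12 probe set, S50461_s_at, had a change with aspirin of -0.80 ± 0.55 (adjusted p = 0.640).

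**Figure D2:**
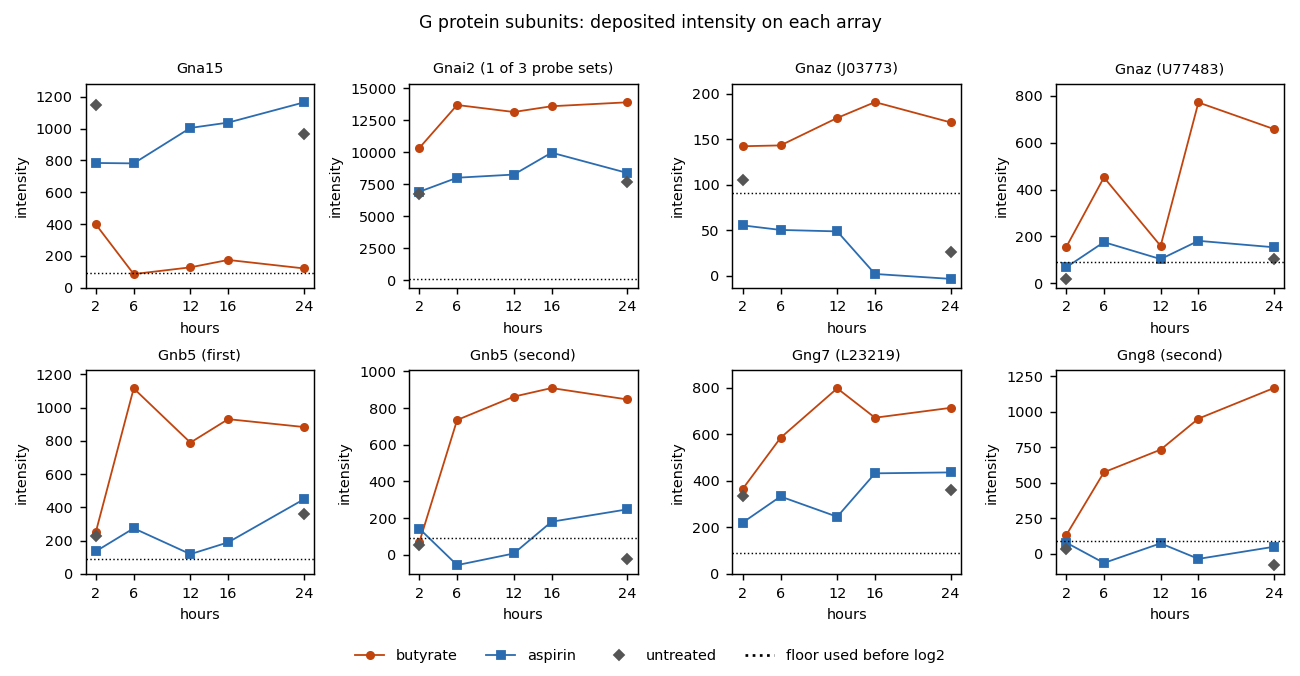
Intensity (linear axis, dotted line at the floor of 90.91) over hours for 8 probe sets of the G protein subunits Gna15, Gnai2, Gnaz, Gnb5, Gng7 and Gng8, with butyrate, with aspirin and without treatment; each point is 1 array. Gna15 lies below the aspirin and untreated arrays at every hour of butyrate, and Gng8 climbs to 1166 at 24 h.

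Of the beta subunits, 6 probe sets of 3 genes were tested, and 1, of Gnb5, rose with butyrate. Gnb5 is an atypical beta subunit known in nerve cells and retina, where it pairs with RGS proteins in place of a gamma subunit. Its probe set AF001953_g_at read 68.0, 735, 862, 909 and 847 over the times of butyrate, 142, -57.0, 6.5, 179.8 and 247 over those of aspirin, and 50.2 and -22.7 in untreated cells. At 2 h of butyrate it was at the floor, like both untreated arrays, and from 6 h on it was above all aspirin and untreated arrays. The first probe set, AF001953_at, read 254, 1116, 790.0, 931 and 884 with butyrate, 136, 275, 119, 190.3 and 449 with aspirin, and 229.6 and 361 in untreated cells.

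The Gnb5 probe set AF001953_g_at rose by 2.56 ± 0.74 against untreated cells (adjusted p = 0.0408), and the call was lost without any 1 array other than butyrate 2 h (adjusted p 0.0572 to 0.199). Against aspirin the same probe set had a change of 1.95 ± 0.59 (adjusted p = 0.0574), while AF001953_at rose by 1.78 ± 0.33 (adjusted p = 0.0175), a call lost without the 6, 12 or 16 h array of either treatment (adjusted p 0.0651 to 0.0739). AF001953_at had a change from untreated cells of 1.31 ± 0.59 with butyrate (adjusted p = 0.157) and of -0.47 ± 0.59 with aspirin (adjusted p = 0.841). The promoter of Gnb5 (chr8:84956379-84956628, plus strand) held 3 GC boxes, 1 of them on the other strand as CCGCCC, and 1 TGACG, on the other strand as CGTCA.
Gnb5: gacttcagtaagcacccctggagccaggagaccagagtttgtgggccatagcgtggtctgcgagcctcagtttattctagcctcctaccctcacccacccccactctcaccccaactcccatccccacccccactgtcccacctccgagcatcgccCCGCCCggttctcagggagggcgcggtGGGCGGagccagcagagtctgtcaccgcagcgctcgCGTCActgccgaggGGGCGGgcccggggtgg
Gnb2, a widely expressed beta subunit and the brightest of the class, read 11206, 8827, 8552, 10319.5 and 10670.3 with butyrate, 8386, 12854, 9452, 11502 and 11999.8 with aspirin, and 10463 and 12792 in untreated cells. Its change was -0.23 ± 0.18 with butyrate (adjusted p = 0.436) and -0.11 ± 0.18 with aspirin (adjusted p = 0.881). The 3 probe sets of Gnb1 overlapped between all groups.

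Of the gamma subunits, 7 probe sets of 4 genes were tested, and 1, of Gng8, rose with butyrate. Gng8 is a gamma subunit known from olfactory and vomeronasal neurons. Its probe set L35921_g_at read 128, 572, 732, 950.3 and 1166 at 2, 6, 12, 16 and 24 h of butyrate and was at the floor on all 5 aspirin and both untreated arrays. It was the one member that increased at each successive time of butyrate and was above the floor in no other group. Gng8 rose by at least 2.65 ± 0.61 against untreated cells (adjusted p = 0.0164) and by at least 2.65 ± 0.48 against aspirin (adjusted p = 0.0161). No scatter was measured among the aspirin and untreated arrays, so both standard errors and p-values rest partly on the floor. The first call was lost without the untreated 2 h (adjusted p = 0.109) or 24 h array (adjusted p = 0.103), and the second without any 1 treated array of 6 to 24 h (adjusted p 0.0641 to 0.0728). The mean of this Gng8 probe set was under the filter limit of 6.54 on the log2 scale in aspirin and untreated cells, so it entered the test through the butyrate arrays alone, and with no filter both calls were lost (adjusted p 0.0604 and 0.0523). With the floor of 182.2 the changes of Gng8 were 1.74 and 1.74, and the call against untreated cells was lost (adjusted p = 0.0562). The companion probe set of Gng8, L35921_at, read 136, 108, 11.2, 222 and 187 with butyrate, 186, 330.5, 36.9, 162 and 124 with aspirin, and -10.1 and 247 in untreated cells. It did not follow the same course, with a change of -0.09 ± 0.49 against untreated cells (adjusted p = 0.938) and -0.20 ± 0.34 against aspirin (adjusted p = 0.679).

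Gng7, known for its pairing with the olfactory alpha subunit in the striatum, read 365, 584, 797, 671 and 713 with butyrate, 221, 333, 246, 432 and 436 with aspirin, and 333 and 362 in untreated cells on the probe set L23219_at. It was higher with butyrate than with aspirin by 0.92 ± 0.22 (adjusted p = 0.0317), a call lost without any 1 treated array other than aspirin 2 h (adjusted p 0.0504 to 0.0890). Against untreated cells the Gng7 change was 0.80 ± 0.38 (adjusted p = 0.176), and that of its other probe set was 0.02 ± 0.47 (adjusted p = 1). Gng5, a widely expressed gamma subunit and the brightest of the class, read 11408, 9833, 8911, 7970.3 and 6325 over the times of butyrate and 13769, 10799, 10274, 6480.5 and 7437 over those of aspirin, against 9476 and 10767 in untreated cells, on rc_AI232477_s_at. Its values lay lower at 16 and 24 h than at 2 h in both treatments.

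Of the RGS proteins, 6 probe sets of 6 genes were tested. Limma called 0 against untreated cells with butyrate, with 1 at an unadjusted p under 0.05, and 1 was lower with butyrate than with aspirin. Rgs19, which speeds GTP hydrolysis by alpha subunits of the inhibitory class, read 657, 435, 508, 502 and 679.7 with butyrate, 714, 1449, 1344, 1270.0 and 1224 with aspirin, and 764 and 1326 in untreated cells. All butyrate arrays lay below all others. Rgs19 was lower with butyrate than with aspirin, with a change of -1.09 ± 0.26 (adjusted p = 0.0301), a call lost without any 1 treated array of 6 to 24 h (adjusted p 0.0833 to 0.110). Against untreated cells its change was -0.88 ± 0.33 (adjusted p = 0.0950). Rgs22 read 356, 443, 333, 315 and 419 with butyrate, 339, 279.9, 302, 341 and 268 with aspirin, and 524 and 449 in untreated cells. Both treatments lay below both untreated arrays, with changes of -0.39 ± 0.28 with butyrate (adjusted p = 0.389) and -0.67 ± 0.28 with aspirin (adjusted p = 0.411).

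Of the adenylyl cyclases, 6 probe sets of 6 genes were tested. Limma called 0 with butyrate against untreated cells, with 0 at an unadjusted p under 0.05, and 1 was lower with butyrate than with aspirin. Adcy6, a cyclase inhibited by calcium and by inhibitory alpha subunits, read 389.7, 234, 227, 213 and 222 with butyrate, 442, 477, 550.4, 553 and 402 with aspirin, and 286 and 429 in untreated cells. The butyrate arrays from 6 h on were close together and below every aspirin and untreated array. Adcy6 was lower with butyrate than with aspirin, with a change of -0.94 ± 0.23 (adjusted p = 0.0332), a call lost without any 1 treated array of 6 to 24 h (adjusted p 0.0906 to 0.112), and its change was -0.49 ± 0.32 against untreated cells (adjusted p = 0.356). Adcy2, a cyclase that beta-gamma pairs stimulate, read 42.5, 202, 246, 248 and 289 with butyrate, 177, 30, 41.5, 136 and 164 with aspirin, and 149.5 and 54.1 in untreated cells, a change of 0.78 ± 0.42 with butyrate (adjusted p = 0.245). Adcy3, known from olfactory neurons, had a change of -0.61 ± 0.37 with aspirin (adjusted p = 0.584), between 153 and 342 with aspirin and 319 and 494 in untreated cells.

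Of the phosphodiesterases, 10 probe sets of 8 genes were tested, and 2 rose with butyrate against untreated cells. Pde6d is named as a subunit of the photoreceptor enzyme, and its protein is a carrier of prenylated proteins. It read 288, 360.5, 363, 478 and 407 with butyrate, 247, 151, 368, 490.1 and 357 with aspirin, and 115 and 131 in untreated cells. All treated arrays lay above both untreated ones, and Pde6d was the one member for which all aspirin arrays were above both. In this count, 1 member lay above and 2 below both untreated arrays on all aspirin arrays, against 3.81 and 7.78% of all probe sets. For butyrate the counts were 12 above and 5 below, against 14.7 and 13.2% of all. All butyrate arrays lay above all aspirin arrays for 6 members and below them for 4, against 10.3 and 5.30% of all. Pde6d rose by 1.61 ± 0.40 with butyrate (adjusted p = 0.0236), a call lost without either untreated array or the butyrate 12, 16 or 24 h array (adjusted p 0.0520 to 0.124), and its change was 1.28 ± 0.40 with aspirin (adjusted p = 0.363). Between butyrate and aspirin the change in Pde6d was 0.32 ± 0.25 (adjusted p = 0.383).

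The other call was Pde4c, a phosphodiesterase specific for cyclic AMP. Its probe set L27061_g_at read 49.1, 638, 342, 749 and 399.5 with butyrate, 35.7, 97.2, -127, -109 and -128 with aspirin, and -163 and -247 in untreated cells. From 6 h on, butyrate was above every other array, and at 2 h it was at the floor. Pde4c rose by 1.98 ± 0.58 against untreated cells (adjusted p = 0.0409), a call lost without any 1 array other than butyrate 2 h (adjusted p 0.0616 to 0.195). Against aspirin it rose by 1.96 ± 0.45 (adjusted p = 0.0274), a call lost without any 1 treated array of 6 to 24 h (adjusted p 0.0969 to 0.100). The mean of L27061_g_at was under the filter limit of 6.54 in aspirin and untreated cells, so Pde4c too entered the test through the butyrate arrays alone, and with no filter both calls were lost (adjusted p 0.118 and 0.0790). With the floor of 182.2 the changes of Pde4c were 1.18 and 1.18 (adjusted p 0.0830 and 0.0499), and with a floor of 20 they were 3.99 and 3.36. Its companion probe set L27061_at was above the floor on 2 arrays, both of butyrate, at 140.4 and 125.

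Pde4a, also specific for cyclic AMP, and Pde3b, which cyclic GMP inhibits, differed between the treatments in opposite directions. On M26715_at, Pde4a read 419.8, 427, 697, 395 and 473 with butyrate, 183, 92.5, 122, 157 and 452 with aspirin, and 302 and 141 in untreated cells. This probe set was higher with butyrate than with aspirin by 1.46 ± 0.38 (adjusted p = 0.0390). The other Pde4a probe set, M25348_s_at, was at the floor on every array and was not tested. Pde3b read 183, 162, 150.1, 123 and 115 with butyrate, 282, 541, 642, 376 and 387 with aspirin, and 203 and 367 in untreated cells, with every butyrate array below every other. It was lower with butyrate than with aspirin, with a change of -1.56 ± 0.25 (adjusted p = 0.0120). The call of Pde4a was lost without any 1 treated array of 2 to 16 h (adjusted p 0.0750 to 0.124), and that of Pde3b without any 1 of 6 to 24 h (adjusted p 0.0506 to 0.0602). That of Pde4a was also lost with quantile normalization (adjusted p = 0.0707). Against untreated cells Pde4a had a change of 1.19 ± 0.52 (adjusted p = 0.145) and Pde3b of -0.92 ± 0.37 (adjusted p = 0.122) with butyrate.

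**Figure D3:**
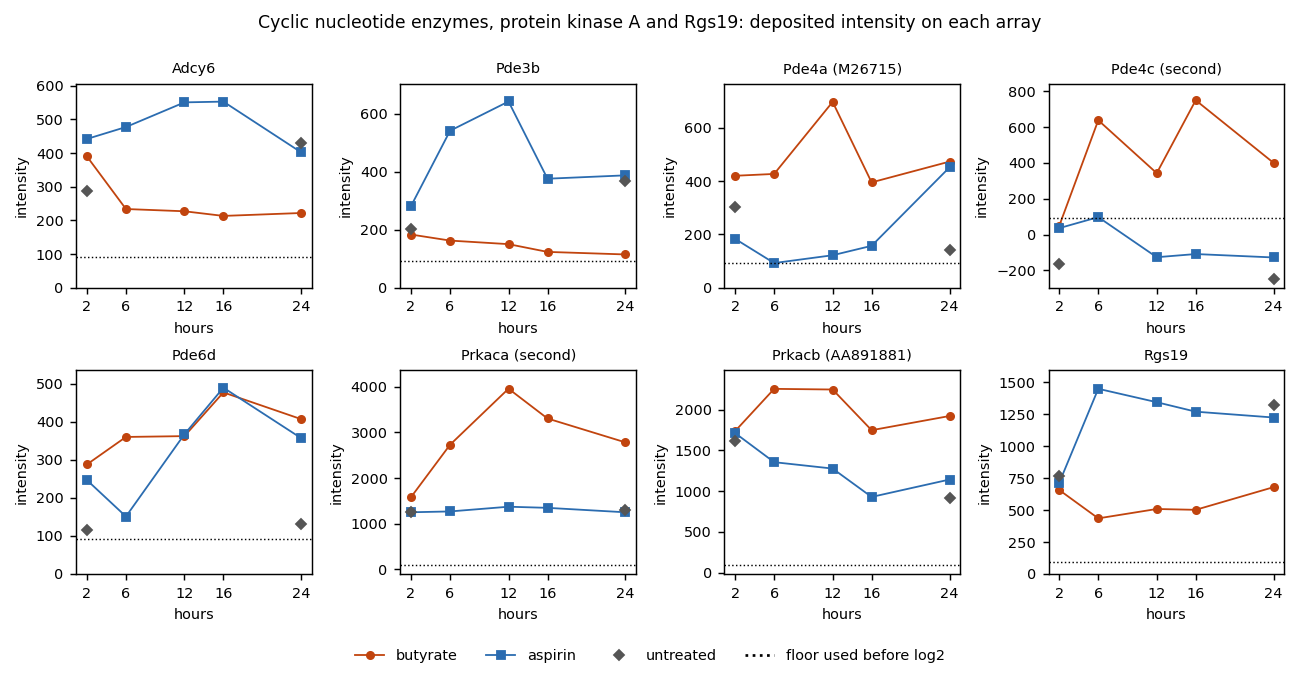
Intensity (linear axis, dotted line at the floor of 90.91) over hours for Adcy6, Pde3b, Pde4a, Pde4c, Pde6d, Prkaca (X57986mRNA_s_at), Prkacb and Rgs19, with butyrate, with aspirin and without treatment; each point is 1 array. Pde3b with butyrate lies below the other arrays at every hour, and Prkaca with butyrate above them.

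Of the catalytic subunits of protein kinase A, 4 probe sets of 2 genes were tested. On X57986mRNA_s_at, Prkaca, the alpha catalytic subunit, read 1583, 2729, 3957, 3304 and 2781 with butyrate, 1249.7, 1268, 1371, 1347 and 1249 with aspirin, and 1257 and 1290.5 in untreated cells. The aspirin and untreated arrays were within a narrow range, and all butyrate arrays were above it, the 2 h array least. Prkaca rose by 1.11 ± 0.28 against untreated cells (adjusted p = 0.0222) and by 1.09 ± 0.18 against aspirin (adjusted p = 0.0135). The first call was lost without either untreated array or butyrate 16 h (adjusted p 0.0595 to 0.108), and the second without any 1 treated array of 6 to 24 h (adjusted p 0.0545 to 0.0659). The probe set X57986mRNA_r_at read 1636, 1275, 1239, 1009 and 1809.6 with butyrate, 1247, 698, 378, 327 and 1058 with aspirin, and 926 and 631 in untreated cells. It was higher with butyrate than with aspirin by 1.08 ± 0.24 (adjusted p = 0.0255), a call lost without any 1 treated array of 6 to 24 h (adjusted p 0.0690 to 0.0905), and its change from untreated cells was 0.84 ± 0.47 (adjusted p = 0.264).

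The promoter of Prkaca (chr19:41083190-41083439, minus strand) held 3 GC boxes and 2 TGACG, of which 1 GC box and both TGACG were on the other strand, as CCGCCC and CGTCA.
Prkaca: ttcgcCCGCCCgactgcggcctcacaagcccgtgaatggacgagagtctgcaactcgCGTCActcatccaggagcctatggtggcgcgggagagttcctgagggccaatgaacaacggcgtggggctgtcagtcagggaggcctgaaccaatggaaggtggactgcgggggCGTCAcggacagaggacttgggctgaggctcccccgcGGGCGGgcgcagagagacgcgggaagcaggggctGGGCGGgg
Prkacb, the beta catalytic subunit, read 1737, 2254, 2246, 1747 and 1921 with butyrate, 1711, 1355, 1276, 928 and 1142 with aspirin, and 1616 and 915 in untreated cells on rc_AA891881_at, with all butyrate arrays above the rest. It was higher with butyrate than with aspirin by 0.65 ± 0.16 (adjusted p = 0.0327), a call lost without any 1 treated array of 6 to 24 h (adjusted p 0.0984 to 0.113), and its change from untreated cells was 0.69 ± 0.27 (adjusted p = 0.110). Its other probe set, D10770_s_at, was above the floor on the untreated 2 h array alone, at 231.

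Of the regulatory subunits, 3 probe sets of 3 genes were tested. Limma called 0 in any of the comparisons of groups, with 0 at an unadjusted p under 0.05 for butyrate against untreated cells and 1 each for aspirin against untreated cells and for butyrate against aspirin. Prkar1a, the brightest, read 3303, 2494, 3441, 4145 and 4729 with butyrate, 2360.3, 2792, 2537, 2292 and 3362 with aspirin, and 3259 and 2680.3 in untreated cells, a change of 0.26 ± 0.24 with butyrate (adjusted p = 0.523). Prkar1b read -35.4, 49.4, 449.6, 231 and 506 with butyrate, -439, -332, -144, 21.2 and 309 with aspirin, and -208 and -313 in untreated cells, a change of 1.23 ± 0.67 with butyrate (adjusted p = 0.251). Prkar2b read 70.5, 158, 128, 166 and 182 with butyrate, 125, 132, 118, 156 and 95.7 with aspirin, and 200.4 and 181 in untreated cells, with a change of -0.62 ± 0.28 with aspirin (adjusted p = 0.443).

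The 18 tested member probe sets without values of their own here were called in none of the group comparisons as reported. After median centring, some were called lower with butyrate, among them probe sets of Gnb1 and Gng10 against aspirin. Their log2 changes were -0.69 to 0.37 with butyrate and -0.51 to 0.40 with aspirin against untreated cells, and -0.40 to 0.35 with butyrate against aspirin. The lowest adjusted p among them was 0.133, 0.411 and 0.109 in these comparisons. They included Gnao1, an alpha subunit known from nerve cells, Gnb1, Gng10, Rgs14, Pde4b and Pde7a.

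Slopes over log2 hours asked whether members moved with time inside a treatment. With butyrate 2 members rose, Gng8 (L35921_g_at) by 0.87 ± 0.10 for each doubling of time (adjusted p = 0.00298) and Gnb5 (AF001953_g_at) by 0.90 ± 0.23 (adjusted p = 0.0483). These were 3.57% of the members tested, where 8.99% of all probe sets had a called slope, 4.79% rising and 4.20% falling. Both slopes rested on the 2 h array: without it the adjusted p was 0.105 for Gng8 and 1 for Gnb5, with a floor of 20 it was 0.05 for Gng8 and 0.183 for Gnb5, and the Gnb5 slope was also lost without butyrate 12, 16 or 24 h or aspirin 6, 12, 16 or 24 h (adjusted p 0.0590 to 0.114). With aspirin, limma called 0 slopes among members, with 9 at an unadjusted p under 0.05 and a lowest adjusted p of 0.0642, where 1.65% of all were called, 1.32% rising and 0.327% falling. The slopes of Gng8 differed between butyrate and aspirin by 0.87 ± 0.14 (adjusted p = 0.0320), the 1 member of 56 (1.79%) for which the difference was called, against 1.73% of all probe sets, 0.686% with a higher and 1.05% with a lower slope with butyrate. That call was lost without butyrate 2, 12 or 16 h or aspirin 2, 12, 16 or 24 h (adjusted p 0.0590 to 0.178), and for Gng8 also with a floor of 20 (adjusted p = 0.141) or no filter (adjusted p = 0.0686). All aspirin arrays of this Gng8 probe set lay at the floor, so its aspirin slope was flat by construction. The difference is therefore the butyrate slope itself, and no aspirin scatter was measured.

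Changes were also counted hour by hour, without a test. The members at least 2-fold from the untreated mean with butyrate were 8.93, 17.9, 23.2, 21.4 and 25.0% at 2, 6, 12, 16 and 24 h, against 11.3, 17.0, 22, 23.6 and 25.7% of all probe sets. With aspirin they were 7.14, 8.93, 10.7, 3.57 and 10.7%, against 10.4, 10.1, 8.07, 8.92 and 14.0%. At 2 h of butyrate, 3 members were 2-fold higher and 2 lower, and at 24 h 12 were higher and 2 lower. All probe sets were not counted by direction here, so this split cannot be read as particular to the members.

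**Figure D4:**
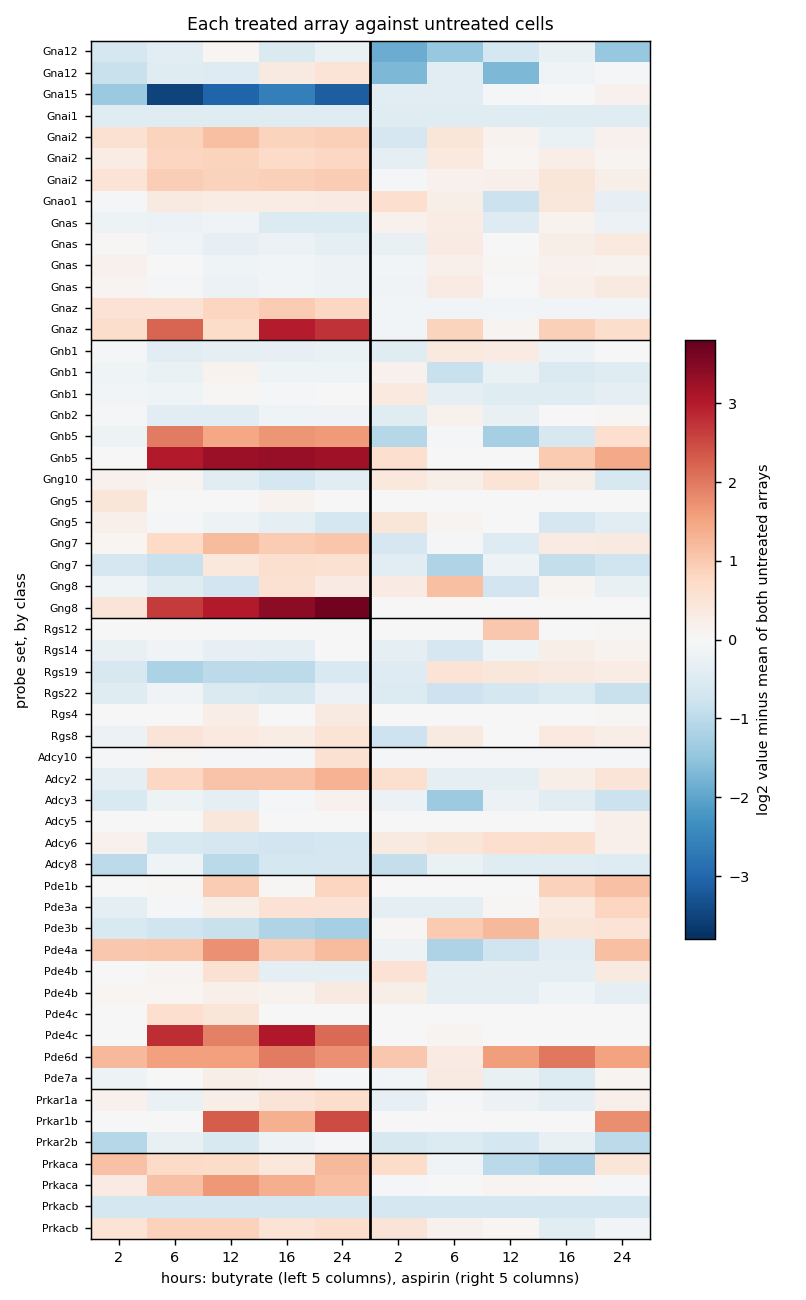
Log2 difference of each of the 56 tested members from the mean of the untreated arrays (colour) on every treated array (columns, butyrate left of aspirin, hours increasing); rows are probe sets grouped by protein class. The largest rise is that of Gng8 at 24 h of butyrate, and the largest fall that of Gna15 at 6 h of butyrate.

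Genes beside the members in the pathway were read from 5 lists. Over all probe sets tested, 7.78% were called higher and 3.92% lower with butyrate against untreated cells, and 15.6% higher and 9.61% lower against aspirin, beside which the counts of the lists stand. Of receptors coupled to G proteins, 1 of 44 tested probe sets (2.27%) was higher with butyrate than in untreated cells and 6 (13.6%) were higher with butyrate than with aspirin, with none lower in either, both shares being under those of all probe sets. S1pr2, a sphingosine phosphate receptor, read 284, 169, 221, 223 and 147 with butyrate, 18.2, 69.4, 126, 170.0 and 103 with aspirin, and 65.1 and 30 in untreated cells on U10699_at. Its rise was at least 1.16 ± 0.30 with butyrate against untreated cells (adjusted p = 0.0258). That call was lost without either untreated array or butyrate 12 or 16 h (adjusted p 0.0569 to 0.110), and the change of the other S1pr2 probe set was -0.10 ± 0.52 (adjusted p = 0.935). Adra2b, an adrenergic receptor of the inhibitory class, read 106, 165, 242, 194 and 266 with butyrate, was at the floor on all 5 aspirin arrays, and read 241 and -25.8 in untreated cells. It was higher with butyrate than with aspirin by at least 1.03 ± 0.21 (adjusted p = 0.0213), lost without any 1 treated array of 6 to 24 h (adjusted p 0.0683 to 0.0827). Ptgir, the prostacyclin receptor, was higher by 0.90 ± 0.24 (adjusted p = 0.0425), lost without any 1 treated array (adjusted p 0.0751 to 0.138), and Chrm4, a muscarinic receptor, by 0.71 ± 0.16 (adjusted p = 0.0277), lost without any 1 of 6 to 24 h (adjusted p 0.0605 to 0.0904). These dim receptors depended on the floor: at 182.2 the changes were 0.24 for S1pr2 against untreated cells (adjusted p = 0.261), and 0.21 for Adra2b (adjusted p = 0.183) and 0.15 for Chrm4 (adjusted p = 0.240) against aspirin.

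Of receptor kinases, arrestins and G protein regulators, 2 of 16 probe sets (12.5%) were higher and 1 (6.25%) lower with butyrate than in untreated cells, and 4 (25.0%) were higher with butyrate than with aspirin. Both higher ones were of Arrb2, an arrestin that uncouples and internalises receptors. M91590_at read 666, 990.5, 964, 1047 and 844 with butyrate, 346, 389, 615, 614 and 568 with aspirin, and 373 and 346 in untreated cells. Arrb2 rose by 1.31 ± 0.31 against untreated cells (adjusted p = 0.0183), lost without the untreated 2 h (adjusted p = 0.0641) or 24 h array (adjusted p = 0.0733), and by 0.95 ± 0.28 on its other probe set (adjusted p = 0.0427), lost without any 1 array other than butyrate 2 h, aspirin 2 h and aspirin 24 h (adjusted p 0.0546 to 0.221). Grk2, a receptor kinase, read 419, 169, 127, 132 and 269 with butyrate, 328, 473, 401, 252 and 409.8 with aspirin, and 838 and 408 in untreated cells on S48813_s_at, where it fell with butyrate, with a change of -1.55 ± 0.47 (adjusted p = 0.0494). The Grk2 call was lost without any 1 array other than butyrate 2 h (adjusted p 0.0630 to 0.339). The other tested probe set of Grk2, M87854_at, was not called in this comparison. Grk6 (Y09365cds_s_at) and Grk5, also receptor kinases, were higher with butyrate than with aspirin by 0.84 ± 0.19 (adjusted p = 0.0258) and 0.80 ± 0.20 (adjusted p = 0.0344). Both calls were lost without any 1 treated array of 6 to 24 h (adjusted p 0.0628 to 0.0930 and 0.0942 to 0.120). The other tested probe set of Grk6, AF040750_at, was not called against aspirin. The mean of Grk5 with aspirin was 6.51 on the log2 scale, the level of the floor, so the size of its change depends on the floor. With the floor of 182.2 the change of Grk5 was 0.07 (adjusted p = 0.343), and with a floor of 20 its call was lost too (adjusted p = 0.0716).

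Of effectors and partners of cyclic AMP, limma called 0 of 18 probe sets with butyrate against untreated cells, with 3 at an unadjusted p under 0.05, and 4 (22.2%) were higher with butyrate than with aspirin. Rap1b, a small GTPase switched on by exchange factors that bind cyclic AMP, read 8492, 9578, 10051, 11412 and 12017 with butyrate, 5826, 7131, 7115, 6064 and 6955 with aspirin, and 9913 and 7243 in untreated cells on rc_AA893443_at. Its 2 probe sets were higher with butyrate than with aspirin by 0.63 ± 0.09 (adjusted p = 0.00999) and 0.78 ± 0.12 (adjusted p = 0.0114), and rc_AA944856_at, the less stable, was lost without the 6 or 16 h array of either treatment (adjusted p 0.0533 to 0.0601). Cap1, a cyclase-associated actin regulator, read 1634, 1886, 2076, 2469 and 2498 with butyrate, 881, 337, 1085, 673 and 1125 with aspirin, and 2331 and 1021 in untreated cells. Cap1 was higher with butyrate than with aspirin by 1.47 ± 0.27 (adjusted p = 0.0167), lost without the 12, 16 or 24 h array of either treatment (adjusted p 0.0557 to 0.0736). Akap8, which anchors protein kinase A in the nucleus, fell over the hours of aspirin, at 2452, 1760.4, 1110.5, 959 and 826, with a slope of -0.46 ± 0.07 for each doubling of time (adjusted p = 0.0228), lost without butyrate 6 or 16 h or aspirin 2, 16 or 24 h (adjusted p 0.0501 to 0.0942). Akap1, which anchors protein kinase A at mitochondria, was higher with butyrate than with aspirin by 0.89 ± 0.24 on 1 of its 3 probe sets (adjusted p = 0.0402), lost without any 1 treated array (adjusted p 0.0618 to 0.122) and with a floor of 182.2 or 20 (adjusted p 0.0617 and 0.0539).

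Of guanylyl cyclases and cyclic GMP kinases, 1 of 19 probe sets (5.26%) was lower with butyrate than in untreated cells and 1 (5.26%) higher with butyrate than with aspirin. Npr3, the natriuretic peptide clearance receptor, was at the floor on all 5 butyrate arrays and read 144 and 148 in untreated cells, a fall with a change of at least -0.69 ± 0.20 in size (adjusted p = 0.0388). It was lost without either untreated array or any 1 of butyrate 6 to 24 h (adjusted p 0.0584 to 0.111). Npr2, a natriuretic peptide receptor that makes cyclic GMP, was higher with butyrate than with aspirin by 0.76 ± 0.18 (adjusted p = 0.0320), lost without any 1 treated array of 6 to 24 h (adjusted p 0.0995 to 0.112). The change of Npr2 was 0.03 with the floor of 182.2 (adjusted p = 0.446) and 1.28 with a floor of 20 (adjusted p = 0.0569), and that of Npr3 was -1.99 with a floor of 20 (adjusted p = 0.134).

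Of the phospholipase C branch, 3 of 28 probe sets (10.7%) were higher and 0 lower with butyrate than in untreated cells, and 7 (25.0%) were higher and 0 lower with butyrate than with aspirin. Prkcd, a diacylglycerol-activated protein kinase C, read 1973, 1668, 1421, 1337 and 1368 with butyrate, 438, 356, 393, 386 and 647 with aspirin, and 305 and 364 in untreated cells on M18330_at. Prkcd rose by 2.20 ± 0.29 (adjusted p = 0.000644) against untreated cells, and the change of its other probe set was 1.15 ± 0.45 (adjusted p = 0.109). Plcd1, a phospholipase C, read 314, 336, 359, 363 and 517 with butyrate and was at the floor on all aspirin and untreated arrays. Plcd1 rose by at least 2.03 ± 0.23 against untreated cells (adjusted p = 0.000351), having passed the filter through the butyrate arrays alone. Prkch, another protein kinase C, read 191, 196, 204, 224 and 215 with butyrate, 82.9, 65.5, 97.4, 93.3 and 101 with aspirin, and 75.3 and 48.9 in untreated cells on X68400_at. Its rise was at least 1.18 ± 0.17 against untreated cells (adjusted p = 0.00154). The calls of these probe sets of Prkcd, Plcd1 and Prkch held without any 1 array. For Plcd1 all aspirin and untreated arrays, and for Prkch both untreated arrays and some of aspirin, lay at the floor. Scatter among arrays at the floor was not measured, so for Plcd1 and Prkch the standard error and this stability rest partly on the floor. With the floor of 182.2 the change of Prkch against untreated cells was 0.18 and its call was lost (adjusted p = 0.0848), and that of Plcd1 was 1.03 (adjusted p = 0.00366), against 4.22 with a floor of 20. Itpr3, a calcium channel opened by inositol trisphosphate, read 1305, 1573, 1658, 1467 and 1146 with butyrate, 659.5, 718, 766, 678 and 653 with aspirin, and 1141 and 817 in untreated cells on L06096_at. It was higher with butyrate than with aspirin by 1.03 ± 0.12 (adjusted p = 0.00687), a call that held in all 17 alternatives. In aspirin against untreated cells, limma called 0 probe sets in each of the 5 lists, with 2 to 5 in a list at an unadjusted p under 0.05. After median centring, the calls of butyrate against aspirin lost among the genes named from these lists were those of Ptgir, S1pr2, Chrm4, Arrb2, Grk5, Grk6, Akap1, Npr2, the Rap1b probe set rc_AA893443_at and 1 probe set each of Itpr3 and Prkch. With no filter, the calls lost among them were those of S1pr2, Arrb2 (M91590_g_at), Grk2 and Npr3 against untreated cells and of Ptgir, Adra2b, S1pr2, Chrm4, Grk5, Akap1, Npr2 and 1 probe set each of Prkcd and Prkch against aspirin.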

How the data were processed

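The deposited table holds 1 column per array and 8799 rows, of which 59 are controls, and its unit was read from the values as intensity on a linear scale. How the authors made these intensities, by which software and with what background step or scaling, is not given in the sources used here. Array means after trimming 2% at each end were 1001.52 to 1002.08, which was read as prior scaling, and no other was applied. No 2 arrays shared more than 0.114% identical values.

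Values under the absolute value of their 10th percentile (90.91, log2 6.51) were raised to it before log2. Probe sets with a mean at or under the 30th percentile (6.54) were left out, which left 6118 of 8740. All members had 1 symbol in the array annotation, and 79 of 79 matched a current RefSeq symbol.

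Treatments were compared with untreated cells on all 12 arrays (9 residual degrees of freedom), butyrate with aspirin with time blocked on the 10 arrays of treated cells (4), and slopes over log2 hours on the same arrays (6), with limma 3.58.1 in R 4.3.3 (lmFit, then eBayes with a variance trend). P-values were adjusted by Benjamini and Hochberg over all probe sets tested. Precision is limited by the number of arrays. The code was tested on simulated data. The members, lists, tests and alternatives were chosen with earlier results of these data known. Named with values are members called in any fit, those with the largest change or brightness in their class, their other tested probe sets, and up to 4 called genes of each pathway list. Alternatives were another floor, no filter, quantile or median scaling, no variance trend, other terms for time, the pair of groups alone, and each array left out. With time blocked, an array left out also takes its partner of the same hour out of the comparison of butyrate with aspirin. The settings without either array of an hour are therefore nearly the same check and do not count as separate ones.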

Additional observations from a re-analysis of the deposited data

Results flagged for a closer look

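Groups with more than 1 of their 5 arrays at the floor, 25 in all, were not examined, since values there have no order. In 7 of the 107 groups examined, 1 array lay far from the other 4 on the log2 scale by Dixon's criterion, whose 5% level lets chance pick out some groups of this number. With butyrate, the 2 h array stood apart for 5 member probe sets. It read 389.7 for Adcy6, where the others read 213.2 to 233.7. It read 7834 for Gnai2 on rc_AA875225_at, against 10582.5 to 11634.4, and 10326.1 on rc_AA875225_g_at, against 13139.7 to 13897. For Gnb5 it read 253.8 on AF001953_at, against 790.0 to 1116, and 68.0 on AF001953_g_at, against 734.9 to 909.2, where 68.0 is under the floor. With aspirin, Rgs19 read 714.2 at 2 h, against 1224.3 to 1449.1. Among the pathway genes, Plcd1 read 517.2 at 24 h of butyrate, against 314 to 362.6.

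The slope of Gng8 (L35921_g_at) over log2 hours was higher with butyrate than with aspirin by 0.87, a difference with an adjusted p of 0.0320 in limma. All 5 aspirin arrays of this probe set lay at the floor, so its aspirin slope was flat by construction. The difference is therefore the butyrate slope itself. The probe set passed the filter through the butyrate arrays alone. The call was lost with a floor of 20 (adjusted p = 0.141) or no filter (adjusted p = 0.0686).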

How the results depend on the processing

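Counts of called members depended on the processing, and the split of higher and lower calls depended on scaling, as given above. For butyrate against untreated, 10 as reported, the count was 5 with the floor at the 5th percentile, 3 with no filter, 6 with no variance trend, 2 with time as a factor, 4 with only these 2 groups fitted, and 3 to 13 with 1 array left out. For aspirin against untreated, 0 as reported, it was 0 to 2 with 1 array left out, the 2 without the untreated 24 h array, when 306 probe sets in all were called in place of 9. For butyrate against aspirin, 17 as reported, it was 8 with no filter and 3 to 24 with 1 array left out. For the butyrate slope, 2 as reported, it was 4 with the floor at the 5th percentile, 1 with the floor at 20, no filter, quantile normalization or no variance trend, and 0 to 4 with 1 array left out. For the aspirin slope, 0 as reported, it was 1 with the floor at 20 or with slopes over hours, 2 with median centring, and 0 to 1 with 1 array left out. For the difference of slopes, 1 as reported, it was 2 with the floor at the 5th percentile, 0 with the floor at 20, no filter or slopes over hours, and 0 to 2 with 1 array left out. The cause was not tested. With no filter more probe sets enter the adjustment, and with 1 array left out fewer arrays enter the fit. Of the values named in the report, 0 that were called in either setting changed sign. A call needs a change well beyond its standard error, so this outcome was largely fixed in advance. Values that were not called are counted as moved where they shifted by more than their standard error, and changed sign in 38 of 955 cases for butyrate against untreated and 53 of 1314 for aspirin against untreated. Signal over the floor limits the dim members: for J03773_s_at of Gnaz the change with butyrate ran from 0.01 to 1.65 over the alternatives. The labels give no replicate numbers but matched hours, and arrays of butyrate and aspirin were paired by hour through the time block of the reported fit; with no time block 16 members were called, 15 of them among the 17.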
